A study of Mus musculus with 24 samples.

Results

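The genes described here are 37 genes of glucose metabolism in mouse macrophages: the glucose transporters, hexokinases and later enzymes of glycolysis, the enzymes that make and export lactate, the gate into the mitochondrion at pyruvate dehydrogenase, and the pentose phosphate pathway. They were chosen by gene symbol, from a list of pathway members, with earlier results of these data known. In the count files they were identified through their Ensembl identifiers. All 37 were found among the 43629 gene identifiers of each file. Of these, 36 had enough reads to be tested, and Pdk4 did not. Gene expression had been measured by RNA sequencing in macrophages at day 7 of culture with the growth factor CSF-1 (20 ng/mL), derived from marrow of C57BL/6 mice, wild type throughout. The cells, with CSF-1 still present in every group, were left unstimulated or were given 1 of 3 stimuli for 1 h or 18 h: bacterial lipopolysaccharide (LPS), LPS plus interferon gamma (IFNg, 50 ng/mL), or interleukin 4 alone (IL-4, 20 ng/mL). Each of the 8 groups held 3 libraries, 24 in all, made with a kit that marks the strand of the mRNA. The labels state 20 or 100 ng/mL for LPS and do not say which dose a library received. Nor do they tie each replicate to its own animal or culture, and p-values therefore measure only the spread between libraries, which may be technical.

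Glycolysis splits glucose into pyruvate and yields ATP and NADH without oxygen. Its flow is set mainly where glucose enters the cell, at hexokinase, at phosphofructokinase and at pyruvate kinase, and each of these steps has several isoforms with different regulation. Lactate dehydrogenase returns NAD+ by turning pyruvate into lactate, the pyruvate dehydrogenase kinases hold pyruvate back from the mitochondrion, and the pentose phosphate pathway draws off glucose 6-phosphate to make NADPH and ribose. Macrophages that meet LPS and IFNg are known to take up more glucose and release more lactate, while macrophages given IL-4 are known for a greater use of mitochondrial respiration.

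Library totals ran from 4181890 to 8122945 counts. Levels are given as CPM, counts scaled to a common library total, after scaling by the trimmed mean of M-values (TMM), and as CPM per kilobase of exon where genes are compared with each other. A gene is said to have risen or fallen where edgeR's quasi-likelihood test gave a Benjamini-Hochberg adjusted p below 0.05 over the 12765 tested genes, and values after ± beside a log2 fold change are standard errors, with 3 libraries in each group. Replicate 2 of LPS at 18 h stood apart from the other LPS libraries of that time, at 9.25 and 11.4 chi-square units per gene from them, where those were 2.42 apart. The IL-4 18 h replicate 2 lay 7.41 units from replicate 1, where replicates 1 and 3 were 3.26 apart. When libraries were scaled to their total instead of by TMM, the median of all tested genes moved to -0.19 for LPS and -0.25 for LPS with IFNg at 1 h, and to -0.41, -0.54 and -0.07 for LPS, LPS with IFNg and IL-4 at 18 h, on the log2 scale. Changes below are relative to the TMM scaling. For called changes of the genes described here, a direction that this alternative turns is named with the gene. Turns of uncalled changes are not named. Median changes of these genes, sums over isoforms and values of all other listed genes are given under TMM scaling only. Small changes among them may turn direction under the alternative. All 8 macrophage markers had reads in every group, with summed levels between 10202 and 25664 CPM, the lowest in IL-4 and the highest in LPS at 18 h. Summed neutrophil markers ran from 31.5 to 54.9 CPM in LPS with IFNg at 18 h, where Mpo and Elane were at 0, and from 123 to 263 CPM in the other groups. With LPS at 18 h, 4 of 6 tested neutrophil markers fell (Mpo -4.42, Camp -1.21, Ngp -0.95 and Ltf -0.83 on the log2 scale). S100a8 rose (1.11) and S100a9 was not called (0.18), so the sum does not show these shifts. Markers of T cells reached at most 8.51 CPM, of dendritic cells 12.3 CPM, of stromal cells 7.19 CPM, of mast cells and basophils 2.12 CPM, of B cells 1.25 CPM and of erythroid cells 0.415 CPM. Of the T cell markers, Cd3e, Cd3d and Cd8a were at 0 in LPS and unstimulated cells at 18 h, and Trac averaged 0.063 and 0 CPM. Cd4 averaged 6.06 and 2.69 CPM in these groups and rose with LPS (1.19 ± 0.37, adjusted p = 0.0070).

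At 18 h the 37 genes took 1.60% of all counts in unstimulated cells, 1.81% with LPS, 2.58% with LPS and IFNg, and 1.52% with IL-4. With LPS, 20 of the 36 tested members rose and 13 fell, beside 31.8% and 31.3% of all tested genes, so the share of members that rose lay above that of all genes and the share that fell was near it. Since the members were chosen with earlier results of these data known, a share above the background is a description and not a test. The median member stood at a log2 fold change of 0.31 and the median of all genes at 0.01. With LPS and IFNg together 22 members rose and 10 fell, beside 36.1% of all genes in either direction, and the median member stood at 1.05 against -0.00. IL-4 raised 11 members and lowered 10, beside 19% and 20.1% of all genes, with a member median of 0.02. Scaled to library totals the LPS counts became 9 higher and 16 lower, beside 16.3% and 54.7% of all genes, so that the share of higher members was still above the background and that of lower members below it. The IL-4 counts became 8 higher and 12 lower, beside 15.3% and 24.1%, and those of LPS with IFNg 19 and 13, beside 19.4% and 59.7%. The 3 comparisons share the same unstimulated libraries. Proliferation genes moved over the same hours: all 11 fell with LPS and with LPS and IFNg, where their summed level was 386 to 455 CPM and 409 to 421 CPM, against 2486 to 2980 CPM in unstimulated cells and 1873 to 2023 CPM with IL-4. The part of this shift, and of the marker shifts above, in the values below was not tested, and in bulk RNA a change in the number of cells of a type and a change in RNA per cell cannot be told apart.

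**Figure D1:**
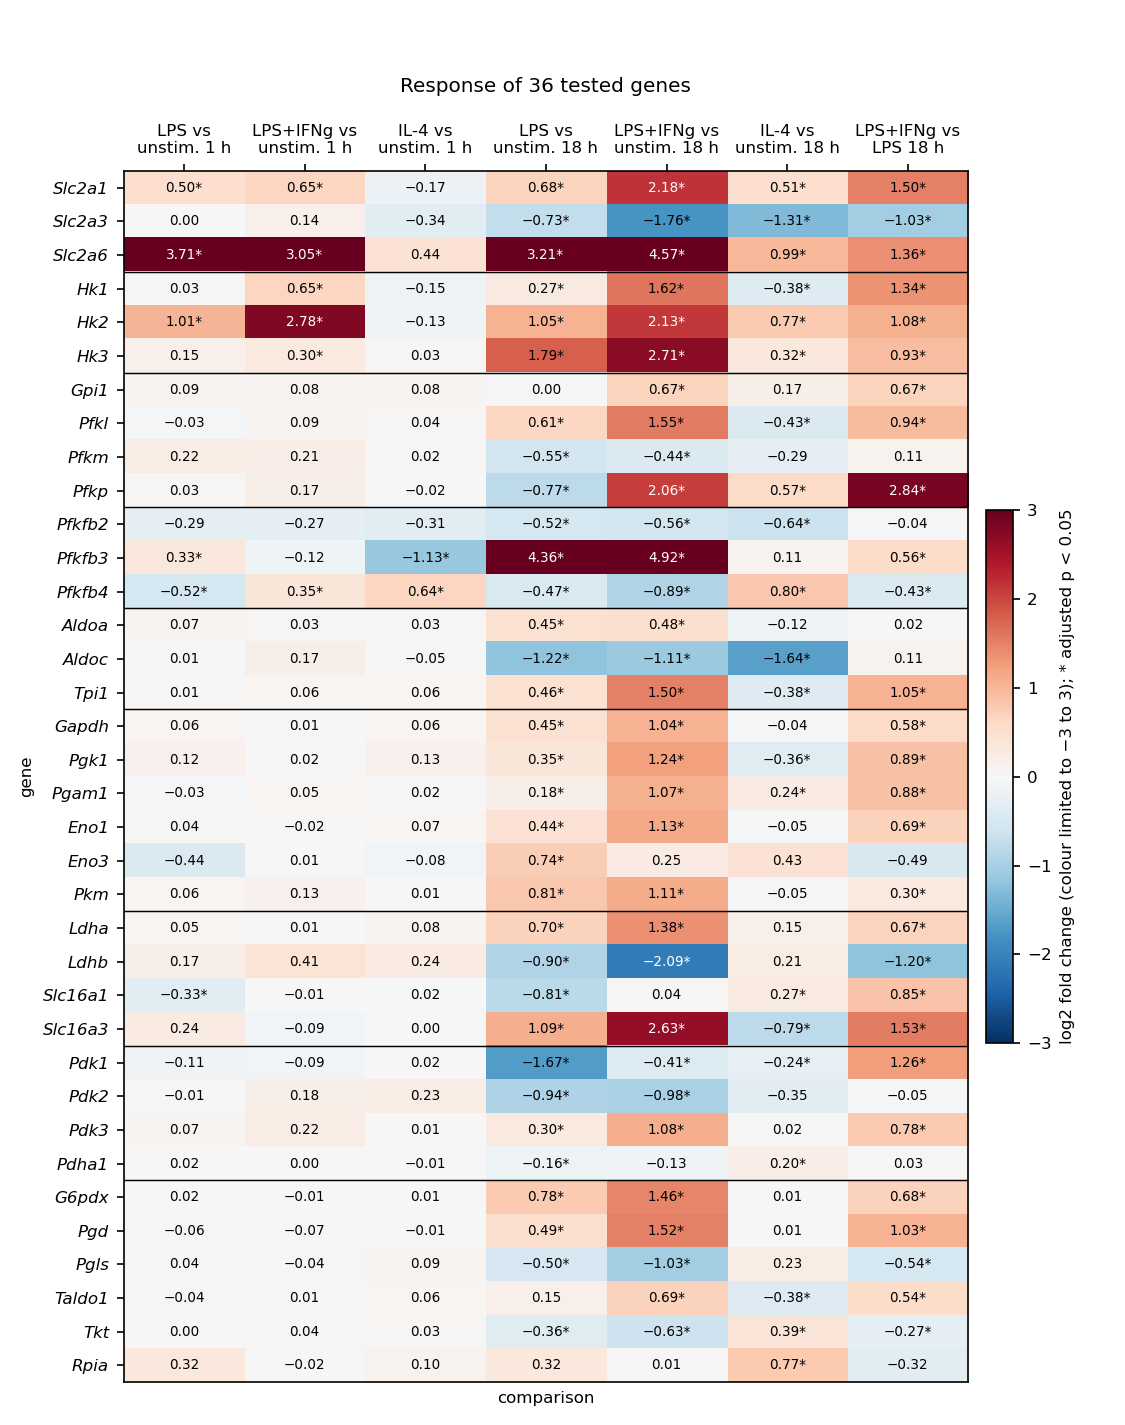
Log2 fold changes of the 36 tested genes (rows, ordered by role) in 7 comparisons (columns), on a colour scale limited to -3 and 3, with an asterisk where the adjusted p was below 0.05. The 1 h columns are mostly pale, the 18 h columns of LPS and of LPS with IFNg hold most asterisks, and Pfkfb3 and Slc2a6 pass the limit of the scale in both; with library-size scaling Hk1, Pgk1, Pgam1 and Pdk3 turn direction in the LPS 18 h column and Aldoa in the column of LPS with IFNg at 18 h.

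Sorted by their calls at 18 h, 18 members rose with LPS and rose further when IFNg was added to LPS, beside 11.6% of all tested genes. These were Slc2a1, Slc2a6, Hk1, Hk2, Hk3, Pfkl, Pfkfb3, Tpi1, Gapdh, Pgk1, Pgam1, Eno1, Pkm, Ldha, Slc16a3, Pdk3, G6pdx and Pgd. Under library-size scaling 9 of the 18 had both calls (Slc2a1, Slc2a6, Hk2, Hk3, Pfkfb3, Pkm, Ldha, Slc16a3 and G6pdx), beside 5.95% of all genes, while Hk1, Pgk1, Pgam1 and Pdk3 turned direction with LPS and Pfkl, Tpi1, Gapdh, Eno1 and Pgd lost that call. Another 5 fell with LPS and fell further with IFNg (Slc2a3, Pfkfb4, Ldhb, Pgls and Tkt), beside 9.2% of all genes, and these 5 kept both calls under library-size scaling, beside 18.5%. The further falls of Ldhb and Tkt were lost without LPS 18 h replicate 2, the library that stood apart. A set of 3 fell with LPS and rose when IFNg was added (Pfkp, Slc16a1 and Pdk1), beside 4.94%, and Gpi1, Pgam1 and Taldo1 joined them under library-size scaling, beside 6.94%. No member rose with LPS and fell with IFNg, beside 8.04%. The comparison of LPS and IFNg against LPS shares the LPS libraries with that of LPS against no stimulus, so the 2 calls of a gene are not independent.

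Promoter windows from RefSeq (assembly GRCm38.p6, 250 bases before to 50 after a start site) were matched for 36 of the 37 members, 53 windows in all. The letters ACGTG, read on either strand, are the core of the hypoxia response element and are also part of the E-box CACGTG. They stood in 23 of the 53 member windows (43.4%) and in 19.6% of all 32851 windows. The median GC content was 60.7% in member windows and 52.7% in all. At least 1 window with ACGTG was found for 13 of the 18 members that rose with LPS and further with IFNg and for 6 of the 18 others. A member with more windows has more chances of a match, and neither windows nor GC content were compared between these sets. CACGTG, every copy of which is also counted under ACGTG, stood in 11.3% of member windows and 7.2% of all, and GCGTG in 62.3% and 32.4%. TTCNNNGAA, a STAT site, stood in 3.8% and 8.3%, and longer cores of the NF-kappa-B site and of the interferon response element stood in 0 member windows and in 1.6% and 3.4% of all, each read on both strands. These matches describe letters and not binding. The windows printed are those of 3 genes of the first pattern (Ldha, Slc16a3 and Pfkfb3) and 2 genes that moved otherwise (Pfkfb4 and Pfkp), each 5′ to 3′ on the gene's strand with ACGTG or its complement CACGT in capitals. They lie at chr7:46845554-46845853 (plus strand), chr11:120948817-120949116 (plus), chr2:11502041-11502340 (minus), chr9:108991652-108991951 (plus) and chr13:6648722-6649021 (minus). The windows of Ldha, Slc16a3 and Pfkfb3 lie wholly inside the annotated genes and so not at their outermost 5′ ends. Ldha has 5 such matches, the nearest 34 bases before the start site, Slc16a3 has 2 and Pfkfb3 has 2 overlapping ones, while the windows of Pfkfb4 and Pfkp have none. The printed windows thus divide more sharply than the full sets, where 13 of 18 and 6 of 18 members had a match.
Ldha: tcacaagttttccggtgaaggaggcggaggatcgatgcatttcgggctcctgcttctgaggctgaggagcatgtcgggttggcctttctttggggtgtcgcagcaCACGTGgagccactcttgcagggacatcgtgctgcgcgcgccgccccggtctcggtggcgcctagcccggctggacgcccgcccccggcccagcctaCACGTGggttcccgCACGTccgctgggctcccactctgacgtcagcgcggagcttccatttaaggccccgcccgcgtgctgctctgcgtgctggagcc
Slc16a3: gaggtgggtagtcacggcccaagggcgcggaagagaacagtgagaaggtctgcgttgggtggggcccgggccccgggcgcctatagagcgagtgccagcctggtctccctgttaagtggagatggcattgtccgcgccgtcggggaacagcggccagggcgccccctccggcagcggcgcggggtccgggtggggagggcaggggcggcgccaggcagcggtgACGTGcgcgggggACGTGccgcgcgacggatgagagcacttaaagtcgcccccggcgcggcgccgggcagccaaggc
Pfkfb3: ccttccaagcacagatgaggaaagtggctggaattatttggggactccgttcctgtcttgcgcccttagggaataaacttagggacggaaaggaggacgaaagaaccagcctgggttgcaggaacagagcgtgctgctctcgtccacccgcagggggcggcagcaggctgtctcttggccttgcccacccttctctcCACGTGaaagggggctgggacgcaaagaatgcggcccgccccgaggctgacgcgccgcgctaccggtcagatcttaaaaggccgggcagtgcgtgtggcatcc
Pfkfb4: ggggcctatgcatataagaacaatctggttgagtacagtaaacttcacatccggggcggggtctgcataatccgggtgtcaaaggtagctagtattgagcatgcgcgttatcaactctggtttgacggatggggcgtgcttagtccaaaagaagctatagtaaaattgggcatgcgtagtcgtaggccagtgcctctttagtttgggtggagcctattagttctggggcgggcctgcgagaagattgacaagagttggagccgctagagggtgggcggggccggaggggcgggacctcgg
Pfkp: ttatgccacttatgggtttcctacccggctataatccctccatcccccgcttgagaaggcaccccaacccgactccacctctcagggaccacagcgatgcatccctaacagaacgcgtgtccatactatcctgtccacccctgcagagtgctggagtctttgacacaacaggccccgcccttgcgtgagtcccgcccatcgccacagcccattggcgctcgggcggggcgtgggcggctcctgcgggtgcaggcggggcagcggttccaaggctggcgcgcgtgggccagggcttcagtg

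Among the glucose transporters, Slc2a6 changed most. Slc2a6 encodes GLUT6, a transporter found largely on internal membranes, and lies at chr2:27021363-27027998, minus strand, in the GRCm38 annotation used for all gene positions here. In unstimulated cells at 1 h its level was 12.0, 12.6 and 13.3 CPM, and after 1 h of LPS it was 155, 154 and 188 CPM. With LPS and IFNg at 1 h it was 105, 92.8 and 115 CPM, below every library of LPS alone. The rise at 1 h was 3.71 ± 0.13, adjusted p = 2.3e-20 on the log2 scale for LPS and 3.05 ± 0.13, adjusted p = 2.9e-18 for LPS with IFNg. Adding IFNg to LPS lowered it at that time (-0.66 ± 0.10, adjusted p = 1.0e-05). At 18 h the order of the LPS groups had turned. Slc2a6 was at 13, 12.7 and 15.4 CPM without stimulus, 122, 149 and 110.3 CPM with LPS, 325, 342 and 311 CPM with LPS and IFNg, and 27.8, 28.5 and 25.2 CPM with IL-4. None of these 4 groups overlapped, and all 3 stimuli raised it: by 3.21 ± 0.13 with LPS, 4.57 ± 0.12, adjusted p = 1.4e-23 with LPS and IFNg, and 0.99 ± 0.14 with IL-4. The added IFNg raised it over LPS by 1.36 ± 0.10, adjusted p = 1.0e-12.

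Slc2a1, at chr4:119108711-119137983, plus strand, encodes GLUT1, the main glucose carrier of the macrophage surface. It rose within 1 h, by 0.50 ± 0.09, adjusted p = 8.4e-05, from 167, 181 and 186 to 229, 257 and 267 CPM with LPS, and by 0.65 ± 0.09 with LPS and IFNg. At 18 h it was at 118, 119 and 105 CPM without stimulus, 175, 202 and 171 with LPS, 536, 578 and 435 with LPS and IFNg, and 172, 153 and 162 with IL-4. Each stimulated group lay above the unstimulated one, and the LPS and IL-4 groups overlapped each other. The changes were 0.68 ± 0.09, 2.18 ± 0.09 and 0.51 ± 0.09, all called, and the unstimulated level itself had fallen between 1 h and 18 h (-0.64 ± 0.09, adjusted p = 1.2e-05). Slc2a3, which encodes the high-affinity carrier GLUT3, was low throughout, at 1.16 ± 0.338 CPM per kilobase (SD) at 18 h against 32.5 ± 2.21 for Slc2a1. It fell at 18 h with LPS (-0.73 ± 0.22, adjusted p = 0.0043), with LPS and IFNg (-1.76 ± 0.25, adjusted p = 2.7e-07) and with IL-4 (-1.31 ± 0.22, adjusted p = 1.6e-05). The call for LPS was lost without unstimulated 18 h replicate 3 (0.064). As a share of the summed CPM per kilobase of the 3 carriers, Slc2a6 went from 11.3% ± 1.66 (SD, n = 3) in unstimulated cells at 18 h to 42.8% ± 1.84 with LPS, 40.9% ± 2.50 with LPS and IFNg and 15.3% ± 1.24 with IL-4.

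**Figure D2:**
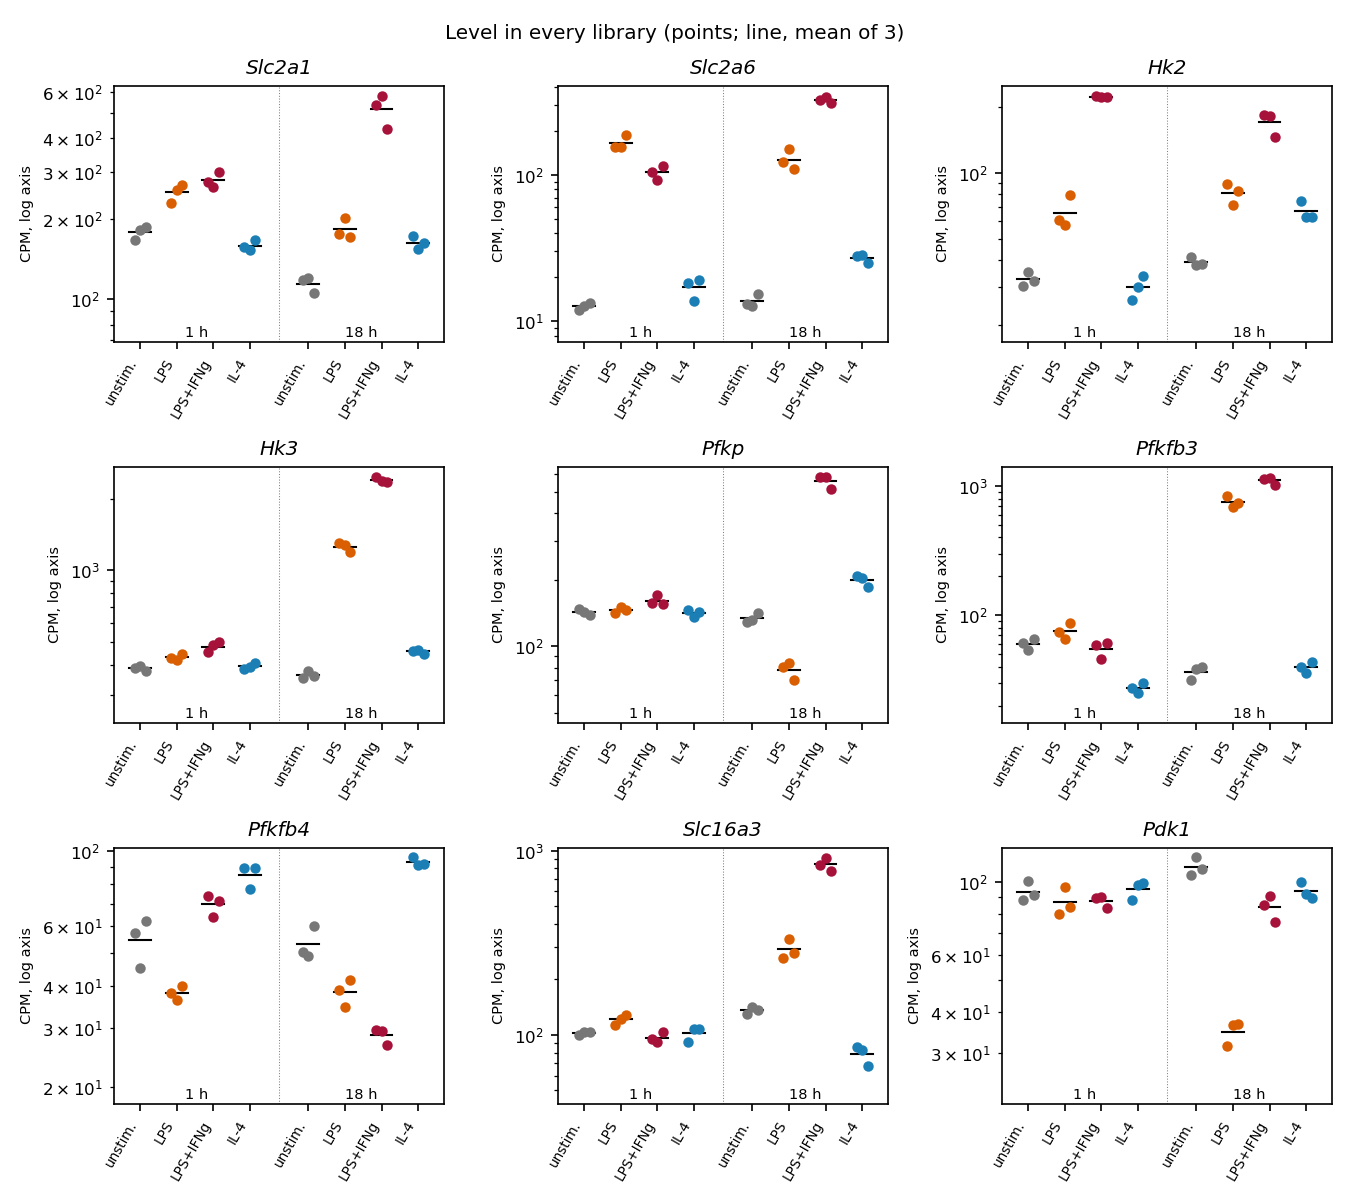
TMM-scaled CPM on a log axis for 9 genes in the 24 libraries, grouped by stimulus and time, with each point a library and each line the mean of 3. Slc2a6 and Slc2a1 already differ at 1 h, Pfkfb3 and Slc16a3 separate mainly at 18 h, and Pfkp and Pdk1 are lowest with LPS alone at 18 h.

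The hexokinases trap glucose in the cell as glucose 6-phosphate. At 1 h Hk2 was the hexokinase with the largest change, and the one most affected by IFNg. Hk2 (chr6:82725025-82774454, minus strand), an isoform that can bind mitochondria and is induced in many activated cells, was at 30.4, 35.3 and 31.9 CPM without stimulus at 1 h, 60.8, 57.7 and 79.1 CPM with LPS and 225, 224 and 222 CPM with LPS and IFNg. The 3 groups did not overlap. LPS raised it by 1.01 ± 0.12, adjusted p = 8.7e-08, LPS with IFNg by 2.78 ± 0.11, adjusted p = 8.1e-19, and the addition of IFNg to LPS by 1.77 ± 0.11, adjusted p = 5.4e-14. At 18 h its levels were 41.3, 37.7 and 38.4 CPM without stimulus, 88.9, 71.3 and 82.8 with LPS, 184, 182 and 147 with LPS and IFNg and 74.6, 63.1 and 63.1 with IL-4. The 18 h rise was 1.05 ± 0.11 with LPS, 2.13 ± 0.11 with LPS and IFNg and 0.77 ± 0.11, adjusted p = 2.5e-06 with IL-4, so IL-4 raised Hk2 also. For LPS with IFNg the rise at 18 h was smaller than that at 1 h (difference -0.65 ± 0.16, adjusted p = 6.6e-04), and for LPS the difference between the times was 0.04 ± 0.17, adjusted p = 0.85.

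Hk3 (chr13:55005985-55021385, minus strand), the hexokinase most typical of myeloid cells, made up most of the hexokinase RNA in every group. It was at 354, 379 and 361 CPM without stimulus at 18 h, 1301, 1274 and 1195 CPM with LPS, 2461, 2377 and 2338 CPM with LPS and IFNg, and 460.4, 464 and 445 CPM with IL-4. No library of one of these groups reached the range of another. The changes were 1.79 ± 0.06, adjusted p = 3.9e-21, 2.71 ± 0.06, adjusted p = 1.8e-25 and 0.32 ± 0.06, adjusted p = 4.7e-05. At 1 h LPS with IFNg raised Hk3 slightly (0.30 ± 0.06, adjusted p = 1.5e-04), a call lost with library-size scaling (0.03, adjusted p = 0.61), and LPS alone gave 0.15 ± 0.06, adjusted p = 0.066. Hk1, the hexokinase of most tissues, rose at 1 h with LPS and IFNg (0.65 ± 0.07, adjusted p = 7.4e-09) but not with LPS (0.03 ± 0.07, adjusted p = 0.84), and the IFNg comparison itself gave 0.62 ± 0.07, adjusted p = 6.3e-08. At 18 h Hk1 changed by 0.27 ± 0.07, adjusted p = 0.0014 with LPS, a direction that library-size scaling turned (-0.15, adjusted p = 0.060), by 1.62 ± 0.07, adjusted p = 1.1e-18 with LPS and IFNg, and by -0.38 ± 0.07, adjusted p = 9.5e-05 with IL-4. Of the summed hexokinase CPM per kilobase, Hk3 held 82.7% ± 0.513 in unstimulated cells at 18 h and 91.8% ± 0.484 with LPS. Its lowest share, 68.8% ± 1.28, was in LPS with IFNg at 1 h, where Hk2 held 19.9% ± 0.746 against 4.37% ± 0.275 in unstimulated cells of that time.

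The step of phosphofructokinase, which commits sugar to glycolysis, changed its isoforms with the stimulus. Pfkp (chr13:6579768-6648777, minus strand), the platelet-type isoform, was at 128, 132 and 141 CPM in unstimulated cells at 18 h. With LPS it was 80.9, 83.8 and 70.2 CPM, below every unstimulated library, and with LPS and IFNg 582, 582 and 514 CPM, above every library of the other groups. IL-4 gave 208, 204 and 185 CPM, also above all unstimulated libraries. Pfkp fell with LPS (-0.77 ± 0.08, adjusted p = 4.8e-10) and rose with LPS and IFNg (2.06 ± 0.07, adjusted p = 8.7e-21) and with IL-4 (0.57 ± 0.07, adjusted p = 1.9e-07). IFNg added to LPS raised it by 2.84 ± 0.08, adjusted p = 1.7e-22, the largest increase among the members in that comparison. At 1 h it was not called for LPS (0.03 ± 0.07, adjusted p = 0.86), for LPS with IFNg (0.17 ± 0.07, adjusted p = 0.079) or for IL-4 (-0.02 ± 0.07, adjusted p = 0.98).

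Pfkl, the liver-type isoform at chr10:77986947-78010083, minus strand, was at 128, 141 and 143 CPM without stimulus at 18 h, 200.1, 243 and 189 with LPS, 416, 433 and 361 with LPS and IFNg and 113, 105 and 86.0 with IL-4, again without overlap between the groups. It moved opposite to Pfkp with LPS (0.61 ± 0.10, adjusted p = 6.3e-06) and with IL-4 (-0.43 ± 0.10, adjusted p = 0.0013), and in the same direction with LPS and IFNg (1.55 ± 0.10, adjusted p = 3.2e-14). The rise with LPS was not called under library-size scaling (0.19, adjusted p = 0.076). Pfkm, the muscle type, fell with LPS (-0.55 ± 0.14, adjusted p = 9.6e-04) and with LPS and IFNg (-0.44 ± 0.13, adjusted p = 0.0042) and was not called for IL-4 (-0.29 ± 0.12, adjusted p = 0.063). As shares of phosphofructokinase CPM per kilobase, Pfkl and Pfkp held 58.1% ± 1.58 and 28.2% ± 0.928 in unstimulated cells at 18 h. The shares were 77.4% ± 1.76 and 14.4% ± 0.858 with LPS, 57.1% ± 0.875 and 39.5% ± 0.663 with LPS and IFNg, and 44.6% ± 2.48 and 43.7% ± 1.06 with IL-4. For Pfkp no group of shares at 18 h overlapped the unstimulated one; an exact permutation test of 3 against 3 libraries, two-sided, gave p = 0.1 for each of these, the smallest it can give.

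The other upper steps moved less. Gpi1, which turns glucose 6-phosphate into fructose 6-phosphate, was not called with LPS at 18 h (0.00 ± 0.07, adjusted p = 0.97) and rose with LPS and IFNg (0.67 ± 0.07, adjusted p = 2.8e-09), which was not called under library-size scaling (0.14, adjusted p = 0.057). Aldoa, the aldolase that held at least 99.1% of aldolase CPM per kilobase on average in every group, rose with LPS (0.45 ± 0.07, adjusted p = 1.8e-06) and with LPS and IFNg (0.48 ± 0.07, adjusted p = 5.7e-07). Scaled to library totals Aldoa was not called with LPS (0.03, adjusted p = 0.67), and with LPS and IFNg its direction turned (-0.06, adjusted p = 0.35). Aldoc, a minor aldolase, fell with all 3 stimuli at 18 h, by -1.22 ± 0.16, -1.11 ± 0.16 and -1.64 ± 0.16, from 16.9, 16.9 and 18.8 CPM to at most 8.85 CPM in any stimulated library. Tpi1, which converts both triose phosphates into each other, was at 714, 758 and 752 CPM without stimulus, 925, 1182 and 943 CPM with LPS and 2115, 2228 and 1958 CPM with LPS and IFNg. It rose by 0.46 ± 0.08, adjusted p = 9.5e-06 and 1.5 ± 0.08, adjusted p = 1.8e-16 and fell with IL-4 (-0.38 ± 0.08, adjusted p = 3.1e-04). With library-size scaling the LPS call for Tpi1 was lost (0.03, adjusted p = 0.71).

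Fructose 2,6-bisphosphate, the strongest activator of phosphofructokinase, is made and broken down by the PFKFB enzymes, and this family held the largest change of all members. Pfkfb3 (chr2:11471433-11554077, minus strand), the isoform in which the kinase most outweighs the phosphatase, was at 31.7, 38.3 and 39.7 CPM in unstimulated cells at 18 h. With LPS it was 834, 684 and 741 CPM and with LPS and IFNg 1139, 1157 and 1023 CPM. IL-4 gave 39.8, 36 and 43.4 CPM, which overlapped the unstimulated libraries. Pfkfb3 rose by 4.36 ± 0.11, adjusted p = 1.5e-23 with LPS and by 4.92 ± 0.12, adjusted p = 6.0e-25 with LPS and IFNg, and IFNg added to LPS raised it further (0.56 ± 0.09, adjusted p = 1.2e-05). IL-4 at 18 h gave 0.11 ± 0.12, adjusted p = 0.49. At 1 h the picture differed. Pfkfb3 was at 61.5, 54.2 and 65.7 CPM without stimulus, 75.1, 66.2 and 87.1 CPM with LPS, 58.9, 46.2 and 60.8 CPM with LPS and IFNg, and 27.5, 25.2 and 29.9 CPM with IL-4. IL-4 lowered it at 1 h by -1.13 ± 0.12, adjusted p = 3.4e-08, the only member that IL-4 lowered at that time. The 1 h rise with LPS (0.33 ± 0.11, adjusted p = 0.032) was small and was lost without LPS 1 h replicate 1 (0.078), LPS 1 h replicate 3 (0.22), unstimulated 1 h replicate 1 (0.071) or unstimulated 1 h replicate 2 (0.18), as it was under library-size scaling (0.14, adjusted p = 0.33). LPS with IFNg lay below LPS at 1 h (-0.45 ± 0.12, adjusted p = 0.006), a call lost without LPS 1 h replicate 3 (0.073) or LPS with IFNg 1 h replicate 2 (0.076).

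Pfkfb4 (chr9:108991778-109032228, plus strand), a sister enzyme, ran against Pfkfb3. At 18 h it was at 50.3, 48.9 and 60.2 CPM without stimulus, 38.9, 34.6 and 41.6 with LPS, 29.5, 29.4 and 26.7 with LPS and IFNg and 95.9, 91.1 and 91.5 with IL-4. It fell with LPS (-0.47 ± 0.11, adjusted p = 3.7e-04) and with LPS and IFNg (-0.89 ± 0.11, adjusted p = 2.4e-08) and rose with IL-4 (0.80 ± 0.10, adjusted p = 7.8e-08). At 1 h it had already fallen with LPS (-0.52 ± 0.11, adjusted p = 4.7e-04) and risen with IL-4 (0.64 ± 0.10, adjusted p = 1.5e-05), the only member that IL-4 raised at that time. With LPS and IFNg at 1 h it rose (0.35 ± 0.10, adjusted p = 0.0069), opposite to LPS alone, with 0.88 ± 0.11, adjusted p = 2.7e-07 for the direct comparison. The call for LPS with IFNg against no stimulus was lost without unstimulated 1 h replicate 2 (0.089) and under library-size scaling (0.09, adjusted p = 0.47). Pfkfb2, the third isoform, was low, at 6.94, 7.31 and 8.15 CPM without stimulus at 18 h, and its falls with LPS (-0.52 ± 0.23, adjusted p = 0.048), LPS with IFNg (-0.56 ± 0.23, adjusted p = 0.027) and IL-4 (-0.64 ± 0.21, adjusted p = 0.018) each lost their call without single libraries. For LPS those were without LPS 18 h replicate 1 (0.1), LPS 18 h replicate 2 (0.29), unstimulated 18 h replicate 1 (0.056), unstimulated 18 h replicate 2 (0.076) or unstimulated 18 h replicate 3 (0.14). For LPS with IFNg the call went without unstimulated 18 h replicate 3 (0.087), LPS with IFNg 18 h replicate 1 (0.059) or LPS with IFNg 18 h replicate 2 (0.098), and for IL-4 without unstimulated 18 h replicate 3 (0.072) or IL-4 18 h replicate 2 (0.13). Pfkfb3 held 28.0% ± 2.00 of the family's CPM per kilobase in unstimulated cells at 18 h, 91.8% ± 0.702 with LPS, 95.5% ± 0.208 with LPS and IFNg and 20.5% ± 1.37 with IL-4, and Pfkfb4 held 63.1% ± 2.85, 7.28% ± 0.62, 3.82% ± 0.0453 and 74.4% ± 2.15.

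**Figure D3:**
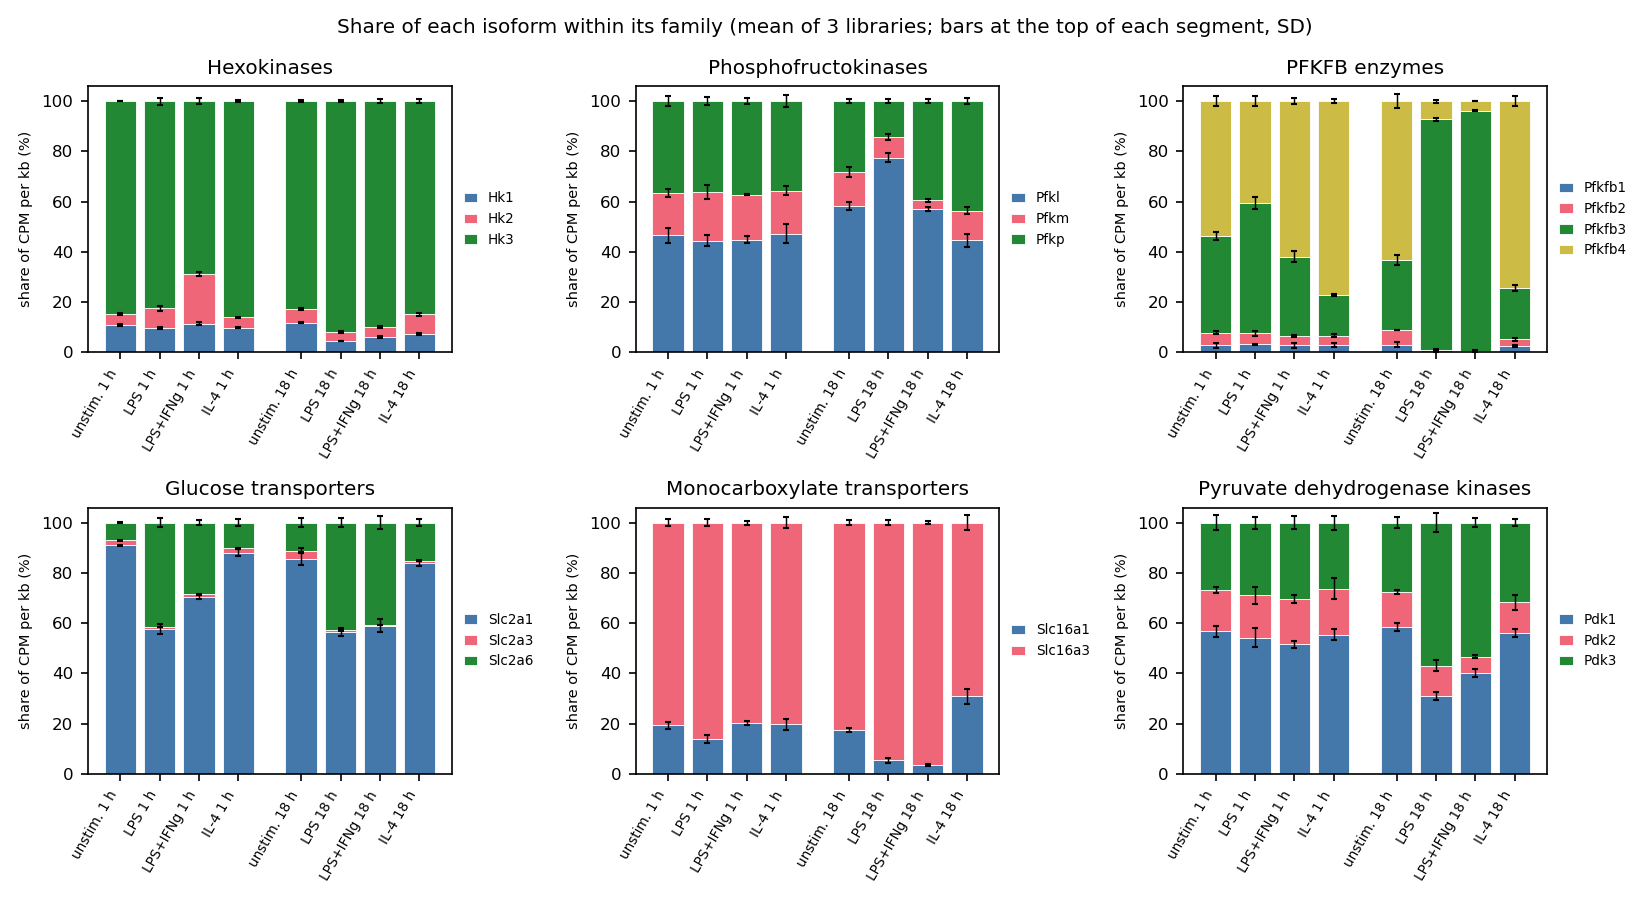
Share of each isoform in the summed CPM per kilobase of its family (percent, vertical axis) in the 8 groups, as the mean of 3 libraries with SD bars, for hexokinases, phosphofructokinases, PFKFB enzymes, glucose transporters, monocarboxylate transporters and pyruvate dehydrogenase kinases. Pfkfb3 takes over from Pfkfb4 with LPS at 18 h, and Pfkp is widest with IL-4 and narrowest with LPS at that time.

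The lower steps of glycolysis, where ATP is made, had 6 tested members. All 6 rose with LPS at 18 h under TMM scaling, with a median log2 fold change of 0.44 and a range from 0.18 for Pgam1 to 0.81 for Pkm. With LPS and IFNg 5 of the 6 rose, with a median of 1.09, and Eno3 was not called (0.25 ± 0.24, adjusted p = 0.35). Gapdh, the dehydrogenase that yields NADH, was at 1507, 1545 and 1613 CPM without stimulus, 1941, 2426 and 2009 CPM with LPS and 3198, 3325 and 3039 CPM with LPS and IFNg, changes of 0.45 ± 0.07, adjusted p = 3.1e-06 and 1.04 ± 0.07, adjusted p = 1.4e-13. Pkm, which makes pyruvate and ATP at the last step, was at 2698, 2818 and 2852 CPM, 4600.5, 5472 and 4621 CPM and 5992, 6243 and 5846 CPM in the same groups, none overlapping (0.81 ± 0.06, adjusted p = 2.0e-12 and 1.11 ± 0.06, adjusted p = 9.1e-16). Pgk1, the kinase that makes the first ATP of these steps, gave 0.35 ± 0.08 and 1.24 ± 0.08, the mutase Pgam1 0.18 ± 0.08 and 1.07 ± 0.07, and the enolase Eno1 0.44 ± 0.09 and 1.13 ± 0.09. The small LPS changes depended on the scaling: with library totals Pgk1 (-0.07, adjusted p = 0.40) and Pgam1 (-0.24, adjusted p = 0.0047) turned direction, and Gapdh (0.03, adjusted p = 0.73), Eno1 (0.01, adjusted p = 0.89) and Eno3 (0.33, adjusted p = 0.20) were not called. The LPS call of Pgam1 was also lost without LPS 18 h replicate 2 (0.13), unstimulated 18 h replicate 1 (0.06) or unstimulated 18 h replicate 3 (0.11), and that of Eno3, a muscle enolase at 3.89, 3.58 and 4.70 CPM without stimulus, without LPS 18 h replicate 3 (0.069). IL-4 lowered Pgk1 (-0.36 ± 0.08, adjusted p = 4.5e-04) and raised Pgam1 (0.24 ± 0.07, adjusted p = 0.012), the latter lost without unstimulated 18 h replicate 3 (0.057) or IL-4 18 h replicate 1 (0.052) and under library-size scaling (0.18, adjusted p = 0.053), and it left the other 4 uncalled.

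Lactate is made by lactate dehydrogenase and leaves the cell through the monocarboxylate transporters, and here the exporter changed more than the enzyme. Slc16a3 (chr11:120948480-120960868, plus strand), which encodes MCT4, the exporter of glycolytic cells, was at 130.0, 142 and 136 CPM without stimulus at 18 h. It was at 263, 332 and 277 CPM with LPS, 839, 907 and 778 CPM with LPS and IFNg and 85.5, 83.0 and 67.5 CPM with IL-4, and no groups overlapped. Slc16a3 rose with LPS (1.09 ± 0.09, adjusted p = 8.6e-12) and more with LPS and IFNg (2.63 ± 0.09, adjusted p = 7.1e-21) and fell with IL-4 (-0.79 ± 0.09, adjusted p = 6.3e-08). At 1 h none of the 3 stimuli moved it past the threshold, and LPS with IFNg lay below LPS (-0.33 ± 0.10, adjusted p = 0.02), a call lost without LPS 1 h replicate 2 (0.063), LPS 1 h replicate 3 (0.1), LPS with IFNg 1 h replicate 1 (0.073) or LPS with IFNg 1 h replicate 2 (0.11). Slc16a1, which encodes MCT1, a carrier that works in both directions, was at 24.6, 24.3 and 23.4 CPM, 15.3, 13.1 and 12.7 CPM, 23.3, 24.3 and 27.1 CPM and 30.6, 27.5 and 29.3 CPM in the same 4 groups. It fell with LPS (-0.81 ± 0.12, adjusted p = 5.5e-07), was not called with LPS and IFNg (0.04 ± 0.10, adjusted p = 0.71), and rose slightly with IL-4 (0.27 ± 0.10, adjusted p = 0.029). That IL-4 call was lost without unstimulated 18 h replicate 1 (0.052), unstimulated 18 h replicate 2 (0.062), unstimulated 18 h replicate 3 (0.091), IL-4 18 h replicate 1 (0.093) or IL-4 18 h replicate 3 (0.061), and under library-size scaling (0.21, adjusted p = 0.10). Its fall with LPS at 1 h (-0.33 ± 0.12, adjusted p = 0.046) was lost without LPS 1 h replicate 1 (0.088), LPS 1 h replicate 3 (0.18), unstimulated 1 h replicate 2 (0.19) or unstimulated 1 h replicate 3 (0.11). Slc16a1 held 17.5% ± 0.832 of the CPM per kilobase of the 2 carriers in unstimulated cells, 5.42% ± 1.02 with LPS, 3.45% ± 0.49 with LPS and IFNg and 30.9% ± 3 with IL-4.

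Ldha (chr7:46841475-46855627, plus strand), the subunit that favours lactate formation, held at least 98.5% of lactate dehydrogenase CPM per kilobase on average in every group. It was at 1293, 1404 and 1365 CPM without stimulus at 18 h, 2071, 2586 and 1952 CPM with LPS, 3451, 3895 and 3193 CPM with LPS and IFNg and 1473, 1632 and 1415 CPM with IL-4. The rises were 0.70 ± 0.09, adjusted p = 4.3e-08 and 1.38 ± 0.09, adjusted p = 1.8e-14, and IL-4 was not called (0.15 ± 0.09, adjusted p = 0.17). Ldhb, the subunit that favours pyruvate formation, was at 3.73, 6.41 and 7.21 CPM, 2.49, 4.38 and 2.65 CPM and 1.71, 1.14 and 1.14 CPM in the first 3 of these groups. It fell with LPS and IFNg (-2.09 ± 0.36, adjusted p = 7.3e-06) and with LPS (-0.90 ± 0.31, adjusted p = 0.012), the latter lost without LPS 18 h replicate 1 (0.066), LPS 18 h replicate 3 (0.051) or unstimulated 18 h replicate 3 (0.073). Its further fall when IFNg was added (-1.20 ± 0.42, adjusted p = 0.021) was lost without LPS 18 h replicate 2 (0.12), LPS with IFNg 18 h replicate 2 (0.063) or LPS with IFNg 18 h replicate 3 (0.064).

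At the gate to the mitochondrion, the pyruvate dehydrogenase kinases switch the complex off, and they did not move as a group. Pdk1 (chr2:71873224-71903858, plus strand) was at 105, 119 and 109.6 CPM without stimulus at 18 h and 31.5, 36.5 and 36.7 CPM with LPS, the lowest of all groups. With LPS and IFNg it was 84.9, 90.5 and 75.6 CPM and with IL-4 100.2, 92.0 and 89.0 CPM. It fell with LPS (-1.67 ± 0.09, adjusted p = 1.1e-15) and less with LPS and IFNg (-0.41 ± 0.08, adjusted p = 8.8e-05), and IFNg added to LPS raised it (1.26 ± 0.10, adjusted p = 3.6e-12). A small fall with IL-4 (-0.24 ± 0.08, adjusted p = 0.019) was lost without unstimulated 18 h replicate 2 (0.11), IL-4 18 h replicate 2 (0.058) or IL-4 18 h replicate 3 (0.08). Pdk2 was low, at 9.82, 11.9 and 10.3 CPM without stimulus at 18 h. It fell with LPS (-0.94 ± 0.21, adjusted p = 3.4e-04) and with LPS and IFNg (-0.98 ± 0.21, adjusted p = 1.3e-04). Pdk3 rose with LPS and IFNg, from 16.8, 16.3 and 18.7 to 37.9, 36.4 and 35.0 CPM (1.08 ± 0.12, adjusted p = 3.1e-09). Its smaller change with LPS (0.30 ± 0.13, adjusted p = 0.047) was lost without LPS 18 h replicate 2 (0.23), unstimulated 18 h replicate 1 (0.1) or unstimulated 18 h replicate 2 (0.14), and turned direction with library-size scaling (-0.12, adjusted p = 0.41). By share of CPM per kilobase, Pdk1 led in unstimulated cells at 18 h (58.5% ± 1.5, with Pdk3 at 27.6% ± 2.35) and Pdk3 led with LPS (57.0% ± 3.66, with Pdk1 at 30.8% ± 1.61) and with LPS and IFNg (53.3% ± 1.85 and 40.2% ± 1.58). Pdk4 had no counts in any library. A floor of 3 counts over a group allows a level of up to 0.142 to 0.217 CPM, by counting error only. Pdha1, a subunit of the dehydrogenase itself, changed by -0.16 ± 0.07 with LPS and 0.20 ± 0.07 with IL-4. The LPS call was lost without LPS 18 h replicate 1 (0.1), LPS 18 h replicate 2 (0.06), LPS 18 h replicate 3 (0.1), unstimulated 18 h replicate 1 (0.23) or unstimulated 18 h replicate 2 (0.079), and the IL-4 call without unstimulated 18 h replicate 2 (0.07), unstimulated 18 h replicate 3 (0.11), IL-4 18 h replicate 1 (0.05) or IL-4 18 h replicate 2 (0.096) and under library-size scaling (0.14, adjusted p = 0.14).

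In the pentose phosphate pathway the dehydrogenases G6pdx and Pgd rose with LPS, while Pgls and Tkt fell. Of the NADPH-making dehydrogenases, G6pdx (chrX:74409483-74429194, minus strand), the entry enzyme, was at 217, 219 and 209.9 CPM without stimulus at 18 h, 377, 396 and 337 CPM with LPS and 586, 604 and 589.9 CPM with LPS and IFNg, without overlap. The changes were 0.78 ± 0.06, adjusted p = 4.3e-12 and 1.46 ± 0.06, adjusted p = 9.9e-19. Pgd, the second dehydrogenase, was at 452, 446 and 443 CPM, 628, 750.1 and 502 CPM and 1322, 1337 and 1185 CPM and rose by 0.49 ± 0.09, adjusted p = 1.7e-05 and 1.52 ± 0.09, adjusted p = 1.6e-15, the former not called with library-size scaling (0.06, adjusted p = 0.52). Pgls, the lactonase that acts between them, fell with LPS (-0.50 ± 0.12, adjusted p = 6.9e-04) and with LPS and IFNg (-1.03 ± 0.12, adjusted p = 1.7e-08). Tkt (chr14:30548359-30574720, plus strand), the transketolase that links the pathway back to glycolysis, was at 431, 437 and 409.6 CPM without stimulus, 326, 379.8 and 288 CPM with LPS, 282, 287 and 256 CPM with LPS and IFNg and 519.7, 589 and 564 CPM with IL-4. It fell with LPS (-0.36 ± 0.08, adjusted p = 1.3e-04) and with LPS and IFNg (-0.63 ± 0.08, adjusted p = 1.7e-08) and rose with IL-4 (0.39 ± 0.07, adjusted p = 1.2e-04). The further fall when IFNg was added (-0.27 ± 0.08, adjusted p = 0.005) was lost without LPS 18 h replicate 2 (0.072). Its partner Taldo1, the transaldolase, went the other way, rising with LPS and IFNg (0.69 ± 0.10, adjusted p = 2.8e-07) and falling with IL-4 (-0.38 ± 0.10, adjusted p = 0.0024), and the rise was not called with library-size scaling (0.15, adjusted p = 0.13). Rpia, the ribose phosphate isomerase, rose with IL-4, from 11.3, 12.5 and 8.78 to 17.8, 20.1 and 17.9 CPM (0.77 ± 0.16, adjusted p = 2.8e-04), and was not called with LPS (0.32 ± 0.18, adjusted p = 0.11) or with LPS and IFNg (0.01 ± 0.18, adjusted p = 0.98).

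Summed over the isoforms of a step, in CPM per kilobase, the steps differed in how far they moved at 18 h. The largest ratios to the unstimulated mean were those of PFKFB, 6.45 with LPS and 9.12 with LPS and IFNg, of glucose transport, 2.43 and 6.57, and of hexokinase, 3.11 and 6.03. Lactate export through the monocarboxylate carriers stood at 1.86 with LPS and 5.28 with LPS and IFNg. Single libraries of LPS with IFNg ran from 5.83 to 7.16 for transport, 5.85 to 6.20 for hexokinase and 4.91 to 5.67 for export. Phosphofructokinase as a whole stood at 1.15 with LPS, the rise of Pfkl against the fall of Pfkp, and at 2.99 with LPS and IFNg. The steps from aldolase to pyruvate kinase lay between 1.14 and 1.76 with LPS and between 1.38 and 2.83 with LPS and IFNg. All sums in this paragraph rest on TMM scaling and are not given with library totals. Those near the unstimulated mean may therefore turn direction, such as phosphofructokinase with LPS or the pyruvate dehydrogenase kinases with LPS and IFNg. With library totals the LPS rises of Aldoa, Tpi1, Gapdh and Eno1 were not called, as given above. Those of Pgk1 and Pgam1 with LPS, and that of Aldoa with LPS and IFNg, turned direction. Lactate dehydrogenase was at 1.62 and 2.57. The pyruvate dehydrogenase kinases together stood at 0.597 with LPS and 1.10 with LPS and IFNg. With IL-4 the ratios ran from 0.688 for lactate export to 1.49 for PFKFB and 1.46 for glucose transport. At 1 h glucose transport stood at 2.23 with LPS and 2.03 with LPS and IFNg, and hexokinase at 1.14 and 1.51. Within that transport sum Slc2a6 held 7.07% without stimulus, 41.5% with LPS and 28.6% with LPS and IFNg. The sums are of RNA and do not measure uptake.

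**Figure D4:**
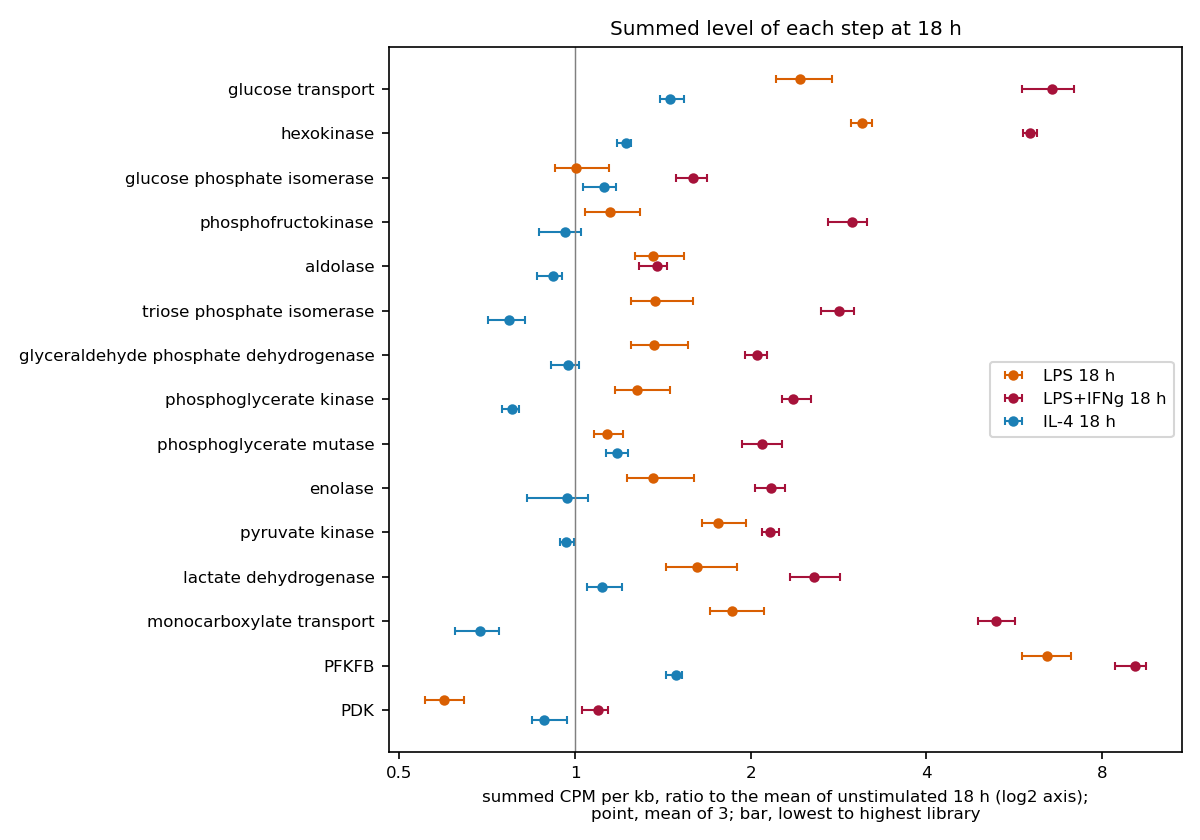
Summed TMM-scaled CPM per kilobase of each step at 18 h as a ratio to the mean of unstimulated cells (log2 axis). The stimuli are LPS, LPS with IFNg and IL-4, with each point the mean of 3 libraries and each bar the lowest to the highest library. Transport, hexokinase, PFKFB and lactate export lie farthest to the right with LPS and IFNg, while IL-4 stays near 1 for most steps.

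The first hour touched few of these genes. LPS raised 4 members (Slc2a1, Slc2a6, Hk2 and Pfkfb3) and lowered 2 (Pfkfb4 and Slc16a1) at 1 h, beside 10.8% and 11.4% of all tested genes, which as shares of 36 are near or below the background. The member median was 0.03. Library-size scaling gave 3 higher and 7 lower, beside 7.01% and 27.8% of all genes, and median-of-ratios scaling 5 higher and 1 lower. Only 1 member was lower without LPS 1 h replicate 1 or 3 or without unstimulated 1 h replicate 2 or 3. LPS with IFNg raised 6 (Slc2a1, Slc2a6, Hk1, Hk2, Hk3 and Pfkfb4) and lowered 0, beside 14.7% and 14.7%. The count of 0 lower members, from edgeR, was also 0 at an unadjusted p below 0.05 and 0 with DESeq2, but 20 with library-size scaling, which gave 4 higher, beside 41.2% and 8.52% of all genes. IL-4 raised 1 and lowered 1 (Pfkfb4 and Pfkfb3), beside 3.22% and 3.27%, and without IL-4 1 h replicate 2 it raised 2. Adding IFNg to LPS raised 3 members at 1 h (Hk1, Hk2 and Pfkfb4) and lowered 3 (Slc2a6, Pfkfb3 and Slc16a3), beside 6.52% and 5.25% of all genes, and lowered 1 without LPS 1 h replicate 3 or without LPS with IFNg 1 h replicate 2. In unstimulated cells 13 members were higher at 18 h than at 1 h and 2 lower, beside 4% and 8.01%, with a member median of 0.12. The 2 that were lower were Slc2a1 and Pfkfb3, and among the higher ones were Pfkl (0.60 ± 0.11), Eno1 (0.44 ± 0.09), Ldha (0.42 ± 0.09), Tpi1 (0.41 ± 0.08) and Slc16a3 (0.41 ± 0.09). Proliferation genes moved in the same comparison, with 5 of 11 higher at 18 h, and their part in it was not tested.

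The responses at 18 h and 1 h were also compared with each other by an interaction contrast in edgeR. For LPS the response at 18 h was higher than at 1 h in 14 members and lower in 11, beside 27% and 27.2% of all tested genes. With library-size scaling these became 9 and 13, beside 18.6% and 36.2%, and without unstimulated 1 h replicate 1 the lower members were 7. Pfkfb3 gave the largest difference, 4.03 ± 0.16, adjusted p = 1.7e-18 on the log2 scale, and Pdk1 the largest in the other direction (-1.57 ± 0.13, adjusted p = 1.5e-11). For LPS with IFNg 21 members were higher and 10 lower, beside 31.8% and 32.2%, again with Pfkfb3 first (5.04 ± 0.16, adjusted p = 1.1e-20), followed by Slc16a3 (2.71 ± 0.13, adjusted p = 7.9e-17). For IL-4 7 were higher and 7 lower, beside 10.1% and 11.4%, and 6 and 9 with library-size scaling, beside 7.71% and 13.9%. The 2 stimuli with LPS share their unstimulated libraries.

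Adding IFNg to LPS changed most of the members at 18 h. Against LPS alone, LPS with IFNg raised 23 members and lowered 5, beside 24% and 23.4% of all tested genes, with a member median of 0.67 and an all-gene median of -0.00. Leaving out LPS 18 h replicate 2, the library that stood apart, the count of lower members went from 5 to 3. The largest increases were those of Pfkp (2.84), Slc16a3 (1.53), Slc2a1 (1.5), Slc2a6 (1.36), Hk1 (1.34) and Pdk1 (1.26). Among the called increases that of Pkm was the smallest (0.30 ± 0.06, adjusted p = 2.0e-04), and Aldoa was not called (0.02 ± 0.07, adjusted p = 0.82). Over the same comparison 7 of 8 macrophage markers fell and Mertk rose (1.91), 4 of 6 tested neutrophil markers fell, and both tested dendritic cell markers rose (Xcr1 by 1.34 and Zbtb46 by 1.71). The 1 tested T cell marker (Cd4, -1.70) fell, and of 11 proliferation genes 7 fell further and 1 rose. Dcn, the 1 tested stromal marker, averaged 4.86 CPM with LPS and 1.16 CPM with LPS and IFNg. It passed the filter through the LPS group, so its lower level against that group is not read as a result. The other stromal markers averaged at most 0.494 CPM in both groups. The part of these shifts was not tested.

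The direct comparison of IL-4 with LPS at 18 h had 10 members higher and 18 lower, beside 32.9% and 32.1% of all genes, and with library-size scaling 14 higher and 12 lower, beside 52.3% and 18.5%. The members higher with IL-4 were led by Pdk1 (1.43 ± 0.09), Pfkp (1.35 ± 0.08), Pfkfb4 (1.27 ± 0.10), Ldhb (1.11 ± 0.29) and Slc16a1 (1.08 ± 0.11), and those lower by Pfkfb3 (-4.25 ± 0.11), Slc2a6 (-2.22 ± 0.11), Slc16a3 (-1.88 ± 0.09), Hk3 (-1.46 ± 0.06) and Pfkl (-1.05 ± 0.10). A call for Hk2, lower with IL-4 (-0.28 ± 0.11, adjusted p = 0.024), turned direction with library-size scaling (0.08, adjusted p = 0.53) and was lost without LPS 18 h replicate 1 (0.14), LPS 18 h replicate 3 (0.058), IL-4 18 h replicate 2 (0.086) or IL-4 18 h replicate 3 (0.084). Against unstimulated cells, 10 members had calls in opposite directions for LPS and IL-4, beside 11.5% of all tested genes: Hk1, Pfkl, Tpi1, Pgk1 and Slc16a3 rose with LPS and fell with IL-4, and Pfkp, Pfkfb4, Slc16a1, Pdha1 and Tkt did the reverse. Under library-size scaling 4 of them (Pfkp, Pfkfb4, Slc16a3 and Tkt) had opposite calls, beside 12.1% of all genes. Hk1 and Pgk1 then turned direction with LPS, Pfkl and Tpi1 lost their LPS call, and Slc16a1 and Pdha1, whose IL-4 calls also rested on single libraries, lost that with IL-4.

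Other genes of the same pathways, 41 of 49 tested, were read beside the members. With LPS at 18 h 16 rose and 12 fell, beside 31.8% and 31.3% of all genes. With LPS and IFNg 16 rose and 15 fell, beside 36.1% in either direction, and with IL-4 9 rose and 6 fell, beside 19% and 20.1%, so these counts lay near the background. At 1 h 1 rose and 6 fell with LPS, beside 10.8% and 11.4%, 3 rose and 8 fell with LPS and IFNg, beside 14.7% and 14.7%, and 1 rose and 1 fell with IL-4, beside 3.22% and 3.27%. The kinases that turn ribose 5-phosphate into the nucleotide precursor PRPP, Prps1 (-2.27 ± 0.18) and Prps2 (-1.92 ± 0.13), fell most with LPS at 18 h, and again with LPS and IFNg (-3.23 ± 0.20 and -3.31 ± 0.16). The glycogen synthase Gys1 rose with LPS and IFNg (2.61 ± 0.10). IFNg added to LPS raised Gys1, the branching enzyme Gbe1 and the phosphoglucomutase Pgm1, by 1.63, 1.60 and 1.56 on the log2 scale, and lowered the enolase Eno2 (-1.58 ± 0.22). At 1 h the pyruvate dehydrogenase phosphatases Pdp1 and Pdp2, which switch the complex on, fell with LPS (-0.82 ± 0.13 and -1.18 ± 0.27), and IL-4 raised Pdp1 (0.74 ± 0.10).

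Regulators of these pathways were read in the same way. Of 11 tested, 5 rose and 3 fell with LPS at 18 h, beside 31.8% and 31.3% of all genes. For LPS with IFNg the counts were 8 higher and 2 lower, beside 36.1% in either direction, and for IL-4 2 higher and 1 lower, beside 19% and 20.1%. As shares of 11, the counts of genes that rose with LPS and with LPS and IFNg lay above the background. The other counts lay near or below it. In a list this short 1 gene moves a share far, and the list was chosen with earlier results of these data known. Hif1a, the transcription factor of the hypoxia response, averaged 86.9 ± 6.31 CPM (SD, n = 3) without stimulus at 18 h, 362 ± 78.5 CPM with LPS and 829.6 ± 16.7 CPM with LPS and IFNg, increases of 2.06 ± 0.11 and 3.25 ± 0.11 on the log2 scale. Its relative Epas1 fell with LPS (-5.00 ± 0.65) and with LPS and IFNg (-3.40 ± 0.49). Myc, which drives growth and many glycolytic genes in dividing cells, fell with LPS (-3.43 ± 0.15) and with LPS and IFNg (-6.65 ± 0.23) and rose with IL-4 (0.56 ± 0.10). Egln3, a prolyl hydroxylase of the HIF proteins, rose with LPS and IFNg (2.36 ± 0.22) and fell with IL-4 (-1.51 ± 0.33). At 1 h Txnip, an inhibitor of glucose uptake, fell with LPS (-2.30 ± 0.09) and with LPS and IFNg (-1.74 ± 0.08).

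Several members share sequence or exons with other genes, and their counts are uncertain to that extent. Of the 50-base words in its exons, Pgk1 shares 53.9% with another gene, Pgam1 36.2%, Eno1 26.0%, Pkm 25.8%, Gapdh 25.1% and Ldhb 21%. Pgls shares 18.85%, with Fam129c, which overlaps it on the same strand. Pkm, Pfkm and Pfkfb2 also share words with a gene that overlaps them on the same strand. The pseudogene Pgam1-ps2 had 25.3% to 33.7% of the level of Pgam1 across the 8 groups. On the opposite strand, Ikbkg stood at 38.3% to 66.1% of the level of G6pdx, Map3k15 at 24.8% to 37.3% of Pdha1, Gm26762 at 20.3% to 27.9% of Gpi1, and Yod1 at 68.8% to 260.0% of Pfkfb2. Slc2a1, Hk1, Hk3, Pfkm, Pfkp, Aldoa, Tpi1 and Gapdh also overlap an exon on the other strand. Whether the counting used the strand was not given in the sources used here.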

How the data were processed

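The authors deposited raw read counts per Ensembl gene identifier for 24 libraries. Per the submitters' processing notes they used STAR, featureCounts, DESeq2 and deepTools on GRCm38. The sources used here do not state versions, annotation release, strand setting or filters. Libraries were stranded mRNA sequenced on a HiSeq instrument, per the labels.

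Groups and replicate numbers came from the titles. Of 43629 identifiers, 42548 were matched to GENCODE M21. filterByExpr (minimum count 10) left 12765 genes for testing and 30864 untested. After TMM scaling, edgeR 4.0.16 (R 4.3.3) was fitted to the counts of all 24 libraries in one model by group, with two-sided quasi-likelihood tests, Benjamini-Hochberg adjustment over all tested genes and a threshold of 0.05. The common biological coefficient of variation was 0.0736. Lengths for CPM per kilobase are the union of a gene's exons.

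All 37 members could be named, and from each other list up to 4 called genes with the largest change per comparison. Members and lists were chosen with earlier results of these data known. On simulated data, 43 of 67 genes changed 1.5-fold, 53 of 67 changed 2-fold and 65 of 66 changed 4-fold were recovered for LPS at 18 h among 12130 genes, with 8 of 169 calls false. For the LPS response at 18 h minus that at 1 h, fewer were recovered. These were 23 of 67, 45 of 67 and 64 of 66 at the same folds, with 7 of 139 calls false. The simulation gave all groups the unstimulated 18 h levels and changed only these genes, in both directions. In the data far more genes changed with LPS. The simulation therefore cannot give the rate of false calls that the choice of scaling may cause. The replicate numbers were not taken to pair libraries, since neither the labels nor the deviations did so throughout. Alternatives were library-size and median-of-ratios scaling, no filter, DESeq2 1.42.0, the compared groups alone, a replicate block, each library left out and, chosen after seeing the data, 2 libraries left out together.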

Additional observations from a re-analysis of the deposited data

Results flagged for a closer look

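The size of a response differed between 1 h and 18 h for a number of members, by an interaction contrast in edgeR's quasi-likelihood test with Benjamini-Hochberg adjustment. All values are the log2 response at 18 h minus that at 1 h, and those of at least 1 in either direction are given. Each response was taken against unstimulated cells of its own time, which themselves differed between the times, and the 3 stimuli share those unstimulated libraries.

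For LPS, the later response was higher for Pfkfb3 (4.03), Hk3 (1.64) and Eno3 (1.18), and lower for Pdk1 (-1.57), Aldoc (-1.23) and Ldhb (-1.07). The Ldhb difference was lost without LPS 1 h replicate 1 (0.057), LPS 1 h replicate 3 (0.06), LPS 18 h replicate 1 (0.088), LPS 18 h replicate 3 (0.073), unstimulated 1 h replicate 1 (0.073), unstimulated 1 h replicate 2 (0.08), unstimulated 18 h replicate 2 (0.069) or unstimulated 18 h replicate 3 (0.096).

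For LPS with IFNg, the later response was higher for Pfkfb3 (5.04), Slc16a3 (2.71), Hk3 (2.42), Pfkp (1.89), Pgd (1.58), Slc2a1 (1.53), Slc2a6 (1.52), Pfkl (1.47), G6pdx (1.47), Tpi1 (1.44), Ldha (1.36), Pgk1 (1.22), Eno1 (1.15), Gapdh (1.03) and Pgam1 (1.02). It was lower for Ldhb (-2.51), Slc2a3 (-1.91), Aldoc (-1.28), Pfkfb4 (-1.25) and Pdk2 (-1.17).

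For IL-4, it was higher for Pfkfb3 (1.24), which had fallen at 1 h (-1.13) and was not called at 18 h (0.11), and lower for Aldoc (-1.59).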

How the results depend on the processing

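Of 247 calls of members over the 13 comparisons, library-size scaling kept 214, lost 27 and reversed 6. The reversed log2 fold changes were those of Hk1 (-0.15), Pgk1 (-0.070), Pgam1 (-0.24) and Pdk3 (-0.12) with LPS at 18 h, Aldoa (-0.061) with LPS and IFNg at 18 h, and Hk2 (0.077) for IL-4 against LPS. Other settings reversed none: median-of-ratios scaling kept 245 calls, no filter 236, the compared groups fitted alone 236 and DESeq2 238. With the LPS and IL-4 18 h replicates 2 left out together, chosen after seeing the data, 138 of 149 kept their call. Leaving out 1 library at a time kept the call in 1767 refits and lost it in 135, and 38 of the 247 calls were lost without at least 1 library. Counts of members moved as follows. With LPS at 1 h, 2 members were lower, but 7 with library-size scaling, 1 with median-of-ratios scaling, no filter, the replicate block, the compared groups alone or DESeq2, and 1 to 2 with a library left out. With LPS at 18 h, 20 were higher, but 9 with library-size scaling. LPS with IFNg at 1 h lowered 0, but 20 with library-size scaling. IL-4 at 1 h raised 1, but 2 with no filter and 1 to 2 with a library left out. IFNg added to LPS lowered 3 members at 1 h and 5 at 18 h, and 1 to 3 and 3 to 5 with a library left out. The LPS response was higher at 18 h than at 1 h in 14 members, but in 9 with library-size scaling, and lower in 11, but in 7 to 11 with a library left out. The shift of all genes under library-size scaling accompanies these changes; beyond the settings' own construction the cause was not tested. Of 72 isoform shares at 18 h, 59 moved by more than 1 SD when the longest transcript replaced the exon union as length, by up to 7.14 percentage points.

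The replicate number was tried as a block. Same-numbered libraries deviated together in 15 of 30 pairs (correlation over 0.1, range -0.09 to 0.43), and in all 3 pairs only for IL-4 against no stimulus at 1 h and IL-4 against LPS at 18 h, where the block gave 1 higher and 1 lower, and 11 and 19. With the replicate block 246 of 247 calls were kept, and Slc16a1 with LPS at 1 h was lost (adjusted p = 0.052), leaving 1 lower member there. Low members set the limit of depth: among tested members Eno3, Slc2a3, Ldhb, Pfkfb2, Pdk2 and Aldoc stayed under 20 CPM in every library.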
